A study of Mus musculus with 2 samples.

Results

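The genes described here lie side by side on the proximal part of mouse chromosome 14, from Abhd6 to Ghitm in the gene order of RefSeq on assembly GRCm38.p6. They were chosen by position, after a run of higher signals had been seen there in these same 2 arrays, so the direction and size of their differences describe the run and do not test it. The deposited table held 167 probe sets of 110 of these genes, out of 15273 probe sets named to a single gene and 10313 genes. RefSeq lists 210 protein-coding genes between the ends, and those outside the table were not analysed here. The cells were mouse embryonic stem cells of line 46C, in which GFP marks Sox1 expression, grown with feeder cells in 15% serum and 1000 U/ml of leukaemia inhibitory factor. One array held RNA of the control culture and 1 held RNA of a culture overexpressing lincU, a long noncoding RNA, both taken after the feeder cells had been removed. The labels name the control only as such, and the sources used here do not say how lincU was overexpressed or whether the overexpressing cells were 1 clone or a pool. Each group had 1 array, so no difference has a replicate check and no p-value is given.

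Neighbouring genes of a mammalian chromosome often take part in unrelated processes and have promoters of their own. In cells known to carry an extra copy of a chromosome segment, a gene whose RNA rises with the copies is called dosage-following, and a gene whose RNA is held at its usual level is called dosage-buffered. DNA copy number was not measured in these cells, and the terms used below, following the stretch and near 0, describe RNA signals alone.

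A probe set was called bright if its log2 signal reached the median of all named probe sets on at least 1 array, 7.96 for control and 7.90 for overexpression. For each gene the probe set with the highest mean of both arrays was used, and 70 of the 110 genes were bright. Signals under the 25th percentile of an array, 5.73 for control and 5.65 for overexpression, were raised to that floor. Bright probe sets for the same gene differed among themselves by an SD of 0.23 over 1732 genes, and this spread holds no variation between cultures. Both arrays carried the markers of pluripotent cells, with Pou5f1 at 13.55 in control and 13.34 in overexpressing cells and all 7 measured markers bright, at a median difference of 0.30. Feeder fibroblast markers had signal as well: 8 of 11 measured were bright, their floored signals ran from 5.73 to 12.72 in control and from 7.04 to 13.01 in overexpressing cells, and their median difference was 0.01. The part of feeder RNA in the values below was not tested.

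The promoters of 7 genes are shown because they stand at the steps of the stretch or at the extremes of its differences. 3830406C13Rik is the last gene with a higher signal before the gap, Thoc7 and Ube2e2 bound the gap, and Rtraf is the first gene after the gap with a listed promoter, since Nid2 has none in the table used. Rps24 and Ldb3 are among the lowest and the highest differences, and Ghitm is the last gene. Sequences are from RefSeq on GRCm38.p6, each from 250 bases before to 50 bases after a listed start, with CG dinucleotides in capitals. They lie at chr14:12283953-12284252 (plus strand), chr14:13961803-13962102 and chr14:13961264-13961563 (both minus strand, 2 starts of Thoc7), chr14:18893722-18894021 (minus strand), chr14:19823774-19824073 (minus strand), chr14:24490428-24490727 (plus strand), chr14:34588632-34588931 (minus strand) and chr14:37135273-37135572 (minus strand).
3830406C13Rik: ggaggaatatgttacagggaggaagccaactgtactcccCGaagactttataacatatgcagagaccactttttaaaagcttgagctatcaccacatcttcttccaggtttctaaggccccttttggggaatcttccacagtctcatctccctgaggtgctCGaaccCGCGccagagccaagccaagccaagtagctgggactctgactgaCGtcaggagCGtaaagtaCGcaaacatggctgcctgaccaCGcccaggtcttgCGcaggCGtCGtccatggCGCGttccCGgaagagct
Thoc7 outer start: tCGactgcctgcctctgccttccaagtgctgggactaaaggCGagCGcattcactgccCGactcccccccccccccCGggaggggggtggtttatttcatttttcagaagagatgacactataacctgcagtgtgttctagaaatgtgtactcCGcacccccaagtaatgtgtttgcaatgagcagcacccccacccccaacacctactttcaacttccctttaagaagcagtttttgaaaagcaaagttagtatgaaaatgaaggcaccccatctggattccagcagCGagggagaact
Thoc7 inner start: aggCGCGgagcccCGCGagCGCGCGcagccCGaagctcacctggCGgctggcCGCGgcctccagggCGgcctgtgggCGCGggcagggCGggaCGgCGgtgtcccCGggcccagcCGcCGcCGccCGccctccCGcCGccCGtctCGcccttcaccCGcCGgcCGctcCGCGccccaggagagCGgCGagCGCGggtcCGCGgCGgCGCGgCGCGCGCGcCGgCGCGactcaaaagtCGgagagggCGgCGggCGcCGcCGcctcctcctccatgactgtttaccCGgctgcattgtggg
Ube2e2: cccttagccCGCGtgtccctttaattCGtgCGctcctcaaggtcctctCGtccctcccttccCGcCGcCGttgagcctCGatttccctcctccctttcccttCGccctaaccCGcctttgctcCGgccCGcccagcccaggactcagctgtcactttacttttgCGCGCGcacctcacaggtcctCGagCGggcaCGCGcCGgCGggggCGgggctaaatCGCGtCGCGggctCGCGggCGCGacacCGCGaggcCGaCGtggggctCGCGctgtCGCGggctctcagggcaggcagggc
Rtraf: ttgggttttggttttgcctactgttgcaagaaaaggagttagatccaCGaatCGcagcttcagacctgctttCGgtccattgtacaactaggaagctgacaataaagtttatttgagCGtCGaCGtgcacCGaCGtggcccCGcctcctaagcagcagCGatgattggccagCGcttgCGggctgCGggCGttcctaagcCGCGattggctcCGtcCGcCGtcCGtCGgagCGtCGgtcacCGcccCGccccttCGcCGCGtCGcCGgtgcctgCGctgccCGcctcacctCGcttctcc
Rps24: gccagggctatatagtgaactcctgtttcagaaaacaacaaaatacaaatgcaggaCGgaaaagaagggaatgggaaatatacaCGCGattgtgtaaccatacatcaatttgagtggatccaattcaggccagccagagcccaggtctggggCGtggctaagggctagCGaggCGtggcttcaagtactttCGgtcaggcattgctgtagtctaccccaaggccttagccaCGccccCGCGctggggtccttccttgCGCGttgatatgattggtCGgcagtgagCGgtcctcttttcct
Ldb3: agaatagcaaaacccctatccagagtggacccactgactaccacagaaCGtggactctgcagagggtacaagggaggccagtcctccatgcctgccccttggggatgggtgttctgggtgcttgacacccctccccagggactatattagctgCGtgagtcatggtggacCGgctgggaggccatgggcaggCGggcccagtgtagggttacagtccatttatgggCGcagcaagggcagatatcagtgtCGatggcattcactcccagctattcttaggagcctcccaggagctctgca
Ghitm: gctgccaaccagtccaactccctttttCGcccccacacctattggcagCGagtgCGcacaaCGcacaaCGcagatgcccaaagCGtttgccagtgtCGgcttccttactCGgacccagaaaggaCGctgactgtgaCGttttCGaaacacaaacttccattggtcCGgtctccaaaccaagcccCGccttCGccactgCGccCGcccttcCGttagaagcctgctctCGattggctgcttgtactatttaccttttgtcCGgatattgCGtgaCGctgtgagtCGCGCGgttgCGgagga

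These promoters did not share one base composition. The inner start of Thoc7 held 54 CG dinucleotides and its outer start 7, Ube2e2 held 39, Rtraf 33, Ghitm 25, 3830406C13Rik and Rps24 14 each, and Ldb3 6. The muscle gene Ldb3, with few CG dinucleotides, and Ghitm, with many, both had higher signals, while the CG-rich Ube2e2 had a lower one.

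The stretch outside the gap had higher signals in the overexpressing cells almost throughout. Of the 62 bright genes there, 61 were higher and 1 was lower, against 50.2% and 49.8% of all 5610 bright genes. At least 2-fold higher were 39, against 1.53% of all bright genes, and at least 1.5-fold higher were 57, against 4.65%. Because the stretch was chosen from this contrast, these shares set the scale and nothing is read from them. Their median log2 difference was 1.12, a fold of 2.18, with an interquartile range from 0.87 to 1.30. The 5540 bright genes outside the stretch had a median of -0.00. In such bulk RNA, more cells with a transcript and more RNA per cell cannot be told apart. Medians of the 19 other chromosomes, X included, lay between -0.04 and 0.10, and at most 2.91% of their bright genes were at least 2-fold higher.

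**Figure D1:**
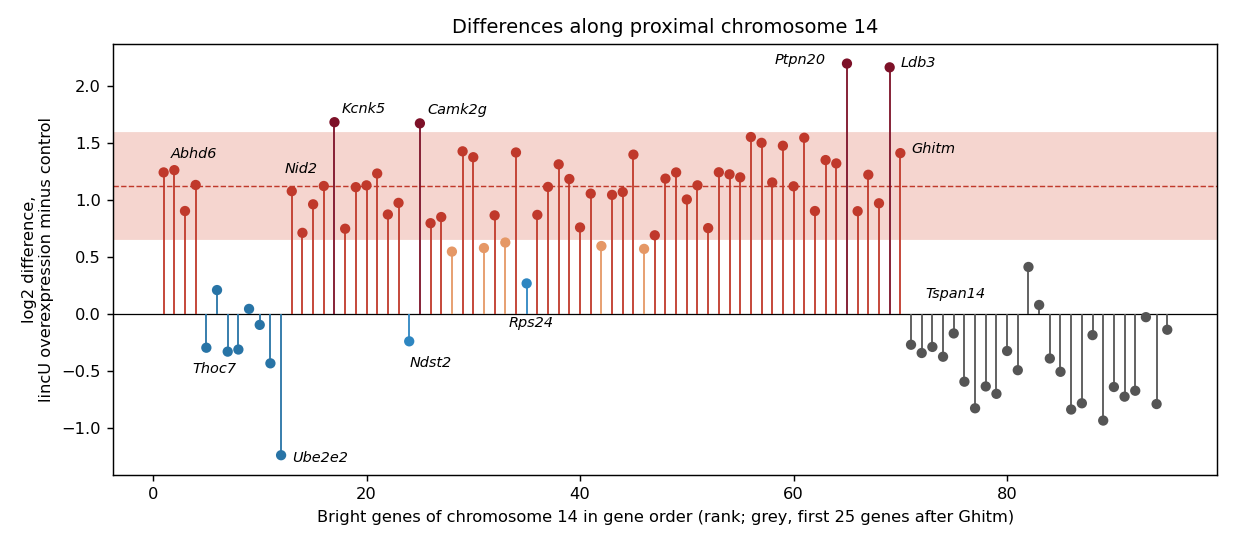
Log2 difference, lincU overexpression minus control, of the 70 bright genes of the stretch and the first 25 bright genes after it, in gene order; each stem is 1 gene, the dashed line is the median of 1.12 outside the gap and the shaded band reaches 0.47 to either side. Blocks of higher genes, from Abhd6 to 3830406C13Rik and from Nid2 to Ghitm, enclose the 8 bright gap genes, and the differences fall below 0 directly after Ghitm.

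The proximal end opened with 3 bright genes that follow each other in the table. Abhd6, which encodes a lipase that breaks down the endocannabinoid 2-arachidonoylglycerol, gave a log2 signal of 8.58 for control and 9.83 for overexpression. Rpp14, which encodes a protein subunit of ribonuclease P, went from 10.16 to 11.42, and Pdhb, the beta subunit of the E1 component of pyruvate dehydrogenase, from 12.90 to 13.81. The fourth bright gene before the gap, 3830406C13Rik, went from 7.81 to 8.94 and was bright through the overexpression array alone. Between Pdhb and 3830406C13Rik the dim genes Acox2, Oit1 and Fhit differed by 0.24, 0 and -0.51. All 4 bright genes were higher, with differences from 0.91 to 1.26 and a median of 1.19, close to the median of 1.12 over the 58 bright genes after the gap. Where the run begins could not be placed, because 81 protein-coding genes precede Abhd6 in RefSeq and the 1 of them in the table, Dnase1l3, was under the floor on both arrays.

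Between Thoc7 and Ube2e2 the higher signals were absent. Over its 8 bright genes the median was -0.30, with 6 genes lower and 2 higher. Thoc7, a subunit of the THO complex of mRNA export, gave 11.80 for control and 11.51 for overexpression. Psmd6, a subunit of the regulatory particle of the proteasome, went the other way, from 13.16 to 13.38, and a second bright probe set had a difference of 0.30 against 0.21 for the first. Ngly1, the enzyme that strips N-glycans from misfolded proteins, went from 8.60 to 8.27. Top2b, the topoisomerase II of non-dividing cells, went from 10.09 to 9.78.

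The other 4 bright genes lay closer to the distal edge of the gap. Nr1d2, which encodes the clock repressor REV-ERB-beta, stood at 11.25 in control and 11.30 in overexpressing cells, and Nkiras1, an inhibitor of NF-kappa-B activation, at 8.88 and 8.79. The ubiquitin-conjugating enzyme genes Ube2e1 and Ube2e2 are related neighbours and were both lower. Ube2e1 went from 12.26 to 11.83, a difference of -0.43, and Ube2e2 from 9.65 to 8.42, a difference of -1.24. Ube2e2 was the only bright gene of the 70 that was at least 2-fold lower, against 1.3% of all bright genes, and without it the gap had a median of -0.29. Atxn7, Oxsm, Thrb and Il3ra, the 4 dim genes of the gap, gave no higher value either: the first 2 were under the floor on both arrays and the others differed by -0.67 and -0.30.

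At both edges of the gap the difference changed between neighbouring bright genes. The difference went from 1.13 at 3830406C13Rik to -0.29 at Thoc7, with 6 protein-coding genes of RefSeq between them. As 3830406C13Rik was bright only on the array where it is high, the nearest gene before this edge that was bright on both arrays is Pdhb, at 0.91. Of these, the neural transcription factor gene Fezf2 and the synaptic vesicle gene Synpr were measured and dim, at differences of -0.09 and 0. At the other edge it went from -1.24 at Ube2e2 to 1.08 at Nid2, which encodes the basement membrane protein nidogen-2, with 4 unmeasured protein-coding genes between. Nid2 gave 11.32 for control and 12.40 for overexpression.

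The distal end was as abrupt. Ghitm, which encodes an inner mitochondrial membrane protein, went from 11.52 to 12.93, and its second probe set differed by 1.52. The next bright gene, Tspan14, which encodes a tetraspanin, went from 8.92 to 8.65, a difference of -0.27, and the 2 bright genes after it, Ero1a and Psmc6, differed by -0.34 and -0.29. RefSeq places 3 protein-coding genes between Ghitm and Tspan14, of which Nrg3 was measured and under the floor on both arrays. The gap and the 137 bright genes after Ghitm both had medians below 0, at -0.30 and -0.59.

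Within the longer block the differences varied with position. In order, the 20 bright genes from Nid2 to Comtd1 had a median of 0.97, the 19 from Dlg5 to Spcs1 one of 1.06 and the 19 from Gnl3 to Ghitm one of 1.25. At least 2-fold higher were 9, 12 and 15 of them. Their median control signals were 10.53, 9.98 and 10.47, and the part of signal in these differences was not tested. The SD between genes was 0.43, 0.31 and 0.38 in the same order, and the change of the median with position was not tested. Over windows of 9 neighbouring bright genes centred on a gene of the block, the median lay between 0.71 and 1.35. Windows near its ends took in genes of the gap or after Ghitm, among them the lowest, centred on Nid2. Windows wholly inside the block went no lower than 0.85.

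Most genes followed the stretch, in the sense of a band around its own median. Taking 2 SD between probe sets, 0.47, as the half-width of a band, 51 of the 62 bright genes outside the gap lay within it around their median, that is from 0.66 to 1.59. Of all bright genes, 3.14% had such a difference, a low share because the stretch was chosen for high differences. Within the same width of 0 lay 82.8% of all bright genes, against 82.3% of the 62 within the band. The SD was 0.39 between the 62 genes and 0.38 between bright genes outside the stretch. The 62 were thus no tighter around their median than other genes. Genes nearest the median belonged to unrelated processes. Saysd1 went from 8.59 to 9.72, Oxnad1 from 9.89 to 11.01, and Dnajc9, which encodes a histone-binding co-chaperone, from 11.43 to 12.56. Actr8, a subunit of the INO80 chromatin remodeller, went from 10.37 to 11.44, and Mettl6, a tRNA methyltransferase gene, from 9.76 to 10.91. At the band's lower limit Prkcd stood just inside at 0.69 and Dlg5 just outside at 0.63, and at the upper limit Bap1 stood inside at 1.55 and Camk2g outside at 1.67.

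**Figure D2:**
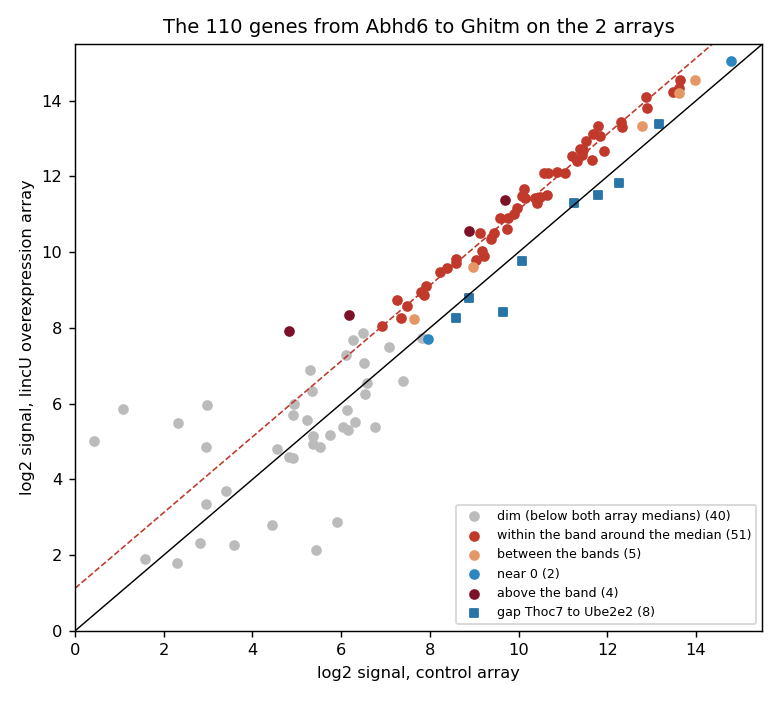
Log2 signal of each of the 110 genes on the control array (horizontal) and on the lincU overexpression array (vertical), 1 point per gene on its chosen probe set, before the floor; the solid line marks equal signals and the dashed line a difference of 1.12. Bright genes outside the gap run along the dashed line, gap genes lie near or under the line of equality, and the 40 dim genes scatter widely.

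Near 0 stood 2 bright genes. Whether they are buffered was not tested, because DNA copy number was not measured. Of all bright genes, 82.8% lay this near to 0. Ndst2, which encodes a heparan sulfate sulfotransferase, gave 7.96 for control and 7.72 for overexpression and was the only bright gene outside the gap that was lower. It was bright through the control array alone, just at its median of 7.96. Rps24, a protein of the small ribosomal subunit, went from 14.79 to 15.06 and differed by 0.27, and by 0.37 on its second bright probe set. Both of these Rps24 probe sets are of a type that can bind related transcripts, their signals were near the array maxima of 15.13 and 15.26, and the dim probe set of the gene differed by 0.42.

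A further 5 genes were higher by less than the band. Adk, the adenosine kinase gene, went from 12.79 to 13.34, and its 2 bright probe sets agreed at 0.55 and 0.48, while a dim one differed by -0.44 and brought the average of all 3 to 0.20. Vdac2, the porin of the outer mitochondrial membrane, went from 13.62 to 14.20. Tkt, the transketolase of the pentose phosphate pathway, went from 13.97 to 14.55. All 3 belonged, with Rps24, to the 16 bright genes of highest mean signal outside the gap. Dlg5, a scaffold gene of cell polarity, and Arhgef3 did not, and went from 8.98 to 9.61 and from 7.64 to 8.24. Arhgef3 was bright through the overexpression array alone.

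Differences were smaller at the median in the group of highest signal. With the 62 genes put into 4 groups by mean signal, the medians were 1.13, 1.16, 1.13 and, in the brightest group of 16 genes with mean signals of 12.23 to 14.92, 0.91. Across the 62 genes the correlation of mean signal with difference was -0.26 (Pearson) and -0.17 (Spearman), a description over genes of the same 2 arrays. Even so, 6 of these 16 genes, Ghitm, Kat6b, Pbrm1, Ncoa4, Spcs1 and Glud1, lay above the median of the stretch. Ncoa4, a coactivator gene whose product also carries ferritin to autophagy, went from 11.79 to 13.34, and Glud1, glutamate dehydrogenase, from 12.87 to 14.10. The part of array saturation in the smaller differences was not tested.

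Above the band stood 4 genes. Kcnk5, a potassium channel gene of the K2P family, went from 9.69 to 11.37, and Camk2g, the gamma subunit of calcium/calmodulin-dependent kinase II, from 8.88 to 10.55, with 1.67 and 1.52 on its 2 bright probe sets. The phosphatase gene Ptpn20 went from 4.82, under the floor, to 7.93, so its difference of 2.20 depends on the floor. Without a floor it was 3.11, and a floor raised to the 40th percentile made it 0.86. Ldb3, whose protein sits at the Z-disc of striated muscle, went from 6.17 to 8.33, a difference of 2.17, or 1.27 with the higher floor. Ptpn20 and Ldb3 were bright through the overexpression array alone, and the other Ldb3 probe set was under the floor on both arrays.

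Brightness through the higher array alone could favour genes with a large difference. Outside the gap 51 genes were bright on both arrays, 10 on the overexpression array alone and 1 on the control array alone. For the 51 the median was 1.13, with 31 at least 2-fold higher, against 50 of all 5178 genes bright on both arrays. The 52 genes bright on the control array had a median of 1.12, so the median did not rest on this choice.

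Several probe sets were available for part of the genes. Of the bright genes outside the gap 25 had several bright probe sets, 60 in all, and in each of the 25 all bright probe sets were higher. Since the stretch was chosen for high differences on these arrays, a shared sign is largely fixed by that choice and is given as a description. Some of the 60 probe sets were also bright through the overexpression array alone, which favours higher values. Dim probe sets of the same genes were not counted. In 13 of the 25 genes every bright probe set was at least 2-fold higher, in 6 some were and in 6 none was. Over all 1732 genes with several bright probe sets, these counts were 16, 20 and 1696. In 1074 of the 1732, all bright probe sets of a gene shared a sign, in either direction. The SD between probe sets of a gene was 0.25 here, and the SD between the 62 genes was 0.39.

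Differences between genes of the stretch were shared in part by probe sets of the same gene. Target sequences of the probe sets were not available, so overlap between those of a gene could not be checked. The brightest and the second-brightest probe set of the 25 genes correlated with r = 0.57 (Pearson) and 0.65 (Spearman), as a description over genes read on the same 2 arrays. Without Abhd6 and Pdhb, left out after their values were seen, these were 0.77 and 0.75 over 23 genes. Rpp14 agreed most closely, with 1.26 on both probe sets. Adk, Glud1, Polr3a and Ghitm followed, with ranges between probe sets of 0.07, 0.08, 0.10 and 0.10. Mapk8, which encodes the stress kinase JNK1, had 1.35, 1.23 and 1.32 on 3 probe sets.

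The widest disagreement was in Pdhb, with 0.91 on the probe set of higher signal and 2.26 on the other, which went from 7.18 to 9.44. That second probe set, like the one of Abhd6 at 2.02, was bright through the overexpression array alone. Abhd6 had 1.24 and 2.02, Nisch, an imidazoline receptor candidate gene, 1.20 and 0.56, Bmpr1a from 0.97 to 1.46 on 4 probe sets, and Anxa7 from 0.76 to 1.23 on 3. With probe sets averaged, Pdhb stood at 1.58 and Abhd6 at 1.63. The probe set of lowest signal gave the larger difference in 14 of the 25 genes and the smaller in 11.

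**Figure D3:**
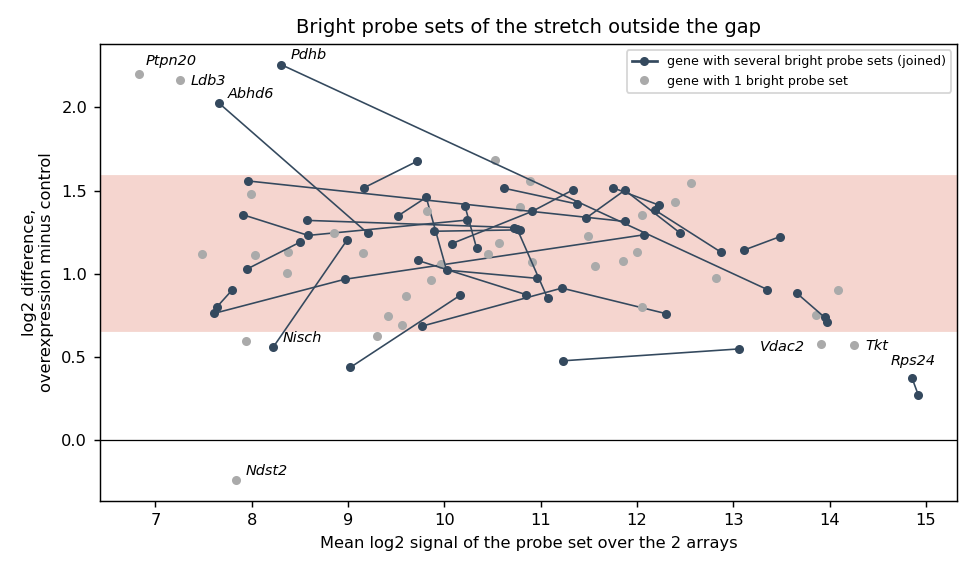
Log2 difference against the mean log2 signal of each bright probe set outside the gap; dark points joined by lines are probe sets of 1 gene (25 genes), grey points are genes with a single bright probe set, and the shaded band reaches 0.47 to either side of 1.12. Most lines stay inside the band, the ranges of Pdhb, Abhd6 and Nisch are the widest, and at the far right Vdac2, Tkt and Rps24 lie below the band while Rtraf and Timm23 lie inside it.

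Outside the gap, 82.3% of the bright genes of the stretch lay in the band and 62.9% were at least 2-fold higher. Of all bright genes, 3.14% and 1.53% did so. Counts by role are set beside these shares, and no difference between roles was tested. All 6 bright genes of chromatin and DNA metabolism outside the gap were higher and inside the band. Their median was 1.30, against 1.12 for the whole stretch outside the gap. Pbrm1, the polybromo subunit of the PBAF remodeller, went from 11.83 to 13.07, and all 3 of its probe sets were at least 2-fold higher. Bap1, a deubiquitinase gene of histone H2A, went from 10.12 to 11.67. Kat6b, a histone acetyltransferase gene, went from 11.68 to 13.11, and Parg, which breaks down poly(ADP-ribose), from 11.38 to 12.73. Sfmbt1, a reader of histone methylation, went from 7.90 to 9.09, bright through the overexpression array alone.

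Genes of RNA and ribosome biology included Rps24, near 0. Their 7 bright members outside the gap had a median of 0.76. At least 2-fold higher were 3, against 62.9% of the stretch outside the gap. Polr3a, the largest subunit of RNA polymerase III, went from 10.67 to 12.09, and the decapping factor gene Dcp1a from 10.08 to 11.48. Gnl3, which encodes nucleostemin, went from 13.48 to 14.24, and Rtraf, a subunit gene of the tRNA ligase complex, from 13.62 to 14.33. Ecd went from 9.04 to 9.79.

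The 10 bright genes of mitochondria and metabolism were all higher, with a median of 0.89. Of these, 3 were at least 2-fold higher, against 62.9% of the stretch outside the gap. Timm23, the channel of protein import across the inner mitochondrial membrane, went from 13.64 to 14.54. Ppif, which encodes cyclophilin D of the permeability transition, went from 9.73 to 10.60. The median signal of this list, 13.21, was above that of the chromatin list, 11.48, and the part of signal in the lower median was not tested.

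Of 10 bright secretory and trafficking genes 9 were higher, and 7 at least 2-fold, near the 62.9% of the stretch outside the gap. Their median was 1.09. Spcs1, a subunit of signal peptidase, went from 12.31 to 13.44, Slmap, a tail-anchored membrane protein gene, from 11.22 to 12.53, and the small GTPase gene Arf4 from 11.92 to 12.68. Selenok, which encodes a selenoprotein of the endoplasmic reticulum, went from 11.04 to 12.09. Ndst2 was the exception given above.

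Signalling genes lay both under and above the band. All 9 bright ones outside the gap were higher, from 0.60 for Arhgef3 to 2.20 for Ptpn20, whose value depends on the floor. Their median was 0.97, and 5 of them lay inside the band, against 82.3% of the stretch outside the gap. Arhgef3, Nek4 and Ptpn20 were bright through the overexpression array alone, which favours higher values. Bmpr1a, a type I receptor of bone morphogenetic proteins, went from 10.47 to 11.45, Mapk8 from 9.58 to 10.90, and Ppp3cb, a catalytic subunit of calcineurin, from 10.41 to 11.29. Prkcd, a protein kinase C gene, went from 9.21 to 9.90. The 4 bright adhesion and cytoskeleton genes, which include Vcl (vinculin) from 11.65 to 12.45 and Anxa7 from 11.46 to 12.69, had a median of 0.99 and all lay inside the band. Anxa8, among these 4, was bright through the overexpression array alone. A further 13 bright genes of the stretch were in none of the lists. Among them were Capn7, a calpain protease gene, from 10.58 to 12.09 and Btd, the biotinidase gene, from 7.26 to 8.73. Btd was bright through the overexpression array alone.

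**Figure D4:**
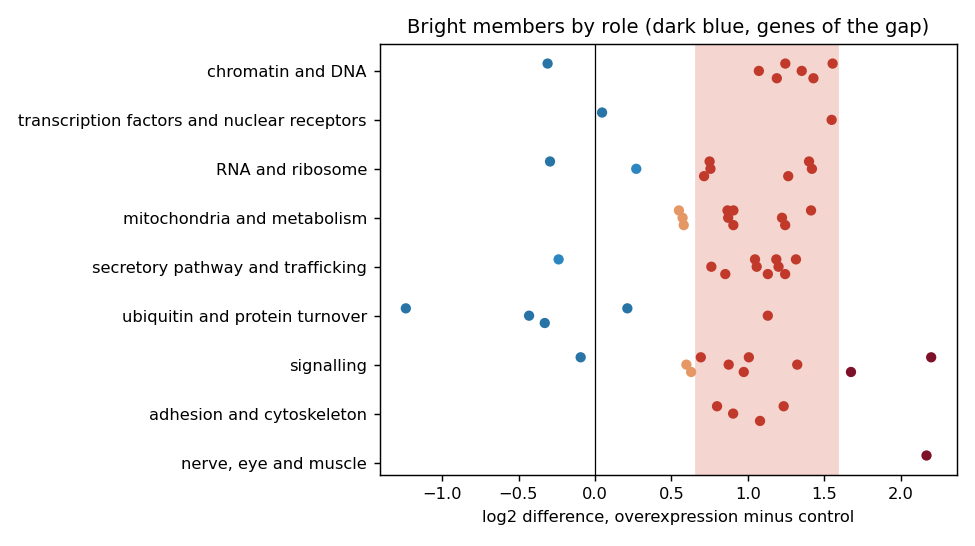
Log2 difference of the bright genes of the stretch by role list, 1 point per gene; the shaded band reaches 0.47 to either side of the median of 1.12, red points lie in it, orange points between the bands, light blue points near 0, dark red points above the band and dark blue points in the gap. All 6 chromatin genes outside the gap lie in the band, and 4 of the 5 ubiquitin and protein turnover genes belong to the gap.

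Tissue-restricted genes of the stretch mostly had no usable signal. Of 13 measured genes of nerve, eye and muscle only Ldb3 was bright. Over the whole stretch 40 genes were dim, 18 of them under the floor on both arrays, and 10 of the remaining 22 were higher and 12 lower. At least 2-fold higher were 4 of the 40, against 155 of all 10313 genes, bright or dim. A share over dim genes alone was not computed. These 4 were Phf7, a gene of histone ubiquitination in the male germ line, from 6.28 to 7.69, and the synuclein gene Sncg from 6.49 to 7.86. The others were Gdf2, which encodes the ligand BMP9, and Sh3bp5. The melanopsin gene Opn4 went from 6.75 to 5.37, under the floor, a difference of -1.10, and the homeobox gene Hesx1 from 6.54 to 6.25. Wnt5a went from 7.81 to 7.74. Without the floor, differences of dim genes ran from -3.30 to 4.78 with a median of -0.05, so the stretch could not be followed in them.

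Partners of the encoded proteins, whose genes lie elsewhere, had differences around 0. Of 16 complexes 10 had a bright subunit encoded outside the gap, and their 39 bright partners had a median of 0.05 and ran from -0.83 to 0.45. None of the 39 was at least 2-fold higher, and the share over all bright genes is 1.53%, so this count lies near the background. Another 3 complexes, with 18 bright partners, had their subunit in the gap, and for 3, with 14, the subunit of the stretch (Tasor, Wapl and Sec24c) was not measured. Over all 71 bright partners the median was 0.06. For Pbrm1, at 1.25, the 7 bright partners in PBAF ran from -0.70 for Arid2 to 0.25 for the ATPase gene Smarca4. For Bap1, at 1.55, 5 partners ran from -0.83 for Mbd6 to 0.06 for Asxl1. For Kat6b, at 1.43, the only bright entry was the related acetyltransferase gene Kat6a, at -0.50. Kat6a is an alternative to Kat6b, not a partner in the same complex, though it is counted among the 39. For Polr3a, at 1.42, 5 partners ran from -0.80 for Polr3d to 0.45 for Polr3f. Polr3d lies on chromosome 14 after Ghitm.

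The metabolic, trafficking and signalling complexes gave like values. Pdhb stood at 0.91, while Pdha1, Dlat and Dld, the other measured subunits of pyruvate dehydrogenase, stood at -0.19, -0.04 and 0.05. For Timm23, at 0.91, 5 partners of the import channel ran from 0.01 to 0.42, and for Ap3m1, at 0.85, 4 partners of the AP-3 adaptor ran from 0.07 to 0.34. Spcs1, at 1.13, stood beside Sec11a at -0.04 and Spcs2 at 0.06. Ppp3cb, at 0.87, stood beside the alternative catalytic subunit Ppp3ca at 0.12 and the regulatory subunit Ppp3r1 at -0.09. Bmpr1a, at 0.97, stood beside 5 receptors and SMADs from -0.43 for Acvr2b to 0.11 for Acvr2a. In these 10 complexes no bright partner reached the difference of the subunit encoded in the stretch, an order that the choice of the stretch for its high differences largely fixes.

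Psmd6 and Thoc7 were the bright subunits encoded in the gap. The gap was set apart with its lack of higher signals known, so their nearness to partners around 0 is largely fixed by that choice. Psmd6, at 0.21, lay within the range of its 9 bright partners in the proteasome, from -0.03 for Psmd11 to 0.29 for Psmd1. Thoc7, at -0.29, lay just under Thoc6, at -0.28, the lowest of 6 partners, of which the highest was Thoc2 at 0.19.

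**Figure D5:**
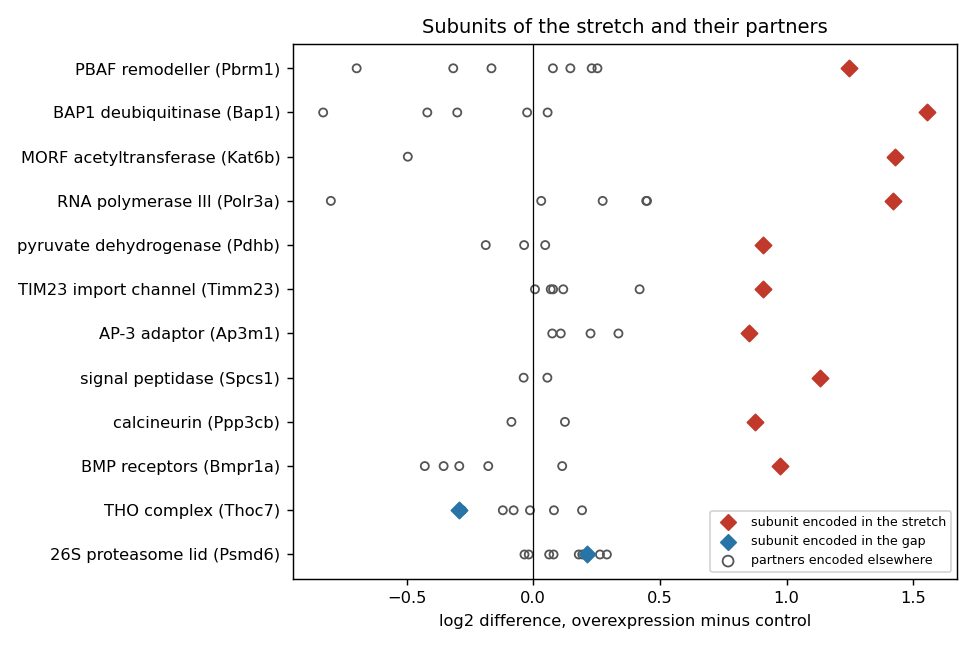
Log2 difference of 12 complex subunits encoded between Abhd6 and Ghitm (diamonds, red outside and blue inside the gap) and of their bright partners encoded elsewhere (open circles), 1 row per complex. Each red diamond lies to the right of all its partners, the blue diamond of Psmd6 lies among its partners and that of Thoc7 at the left end of its row.

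Promoters were compared by their CG content and by short motifs. RefSeq promoters were matched for 97 of the 110 genes, taking the first listed start of each. The 47 matched genes inside the band had a median of 25 CG dinucleotides in 300 bases, against 22 for all bright genes, 20 for 7 bright gap genes and 17 for 6 genes under the band. For Thoc7 the start taken was the outer one, with 7, while the inner one held 54. The gap median depends on this choice, so its order against the band is not read. The 34 matched dim genes had a median of 9, against 10 for all dim genes of the table.

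Short motifs were searched on both strands, and none of them lies whole within another. The CCAAT box (CCAAT) was in 42.6% of the promoters inside the band, in 39.9% of those of bright genes and in 37.9% of all 27025 promoters, and the GC box (GGGCGG) in 66% and 35.9%, with 68.6% among all bright genes. The E-box CACGTG was in 8 of the 47, or 17%, and in 7.24% of all promoters, with 11.2% among bright genes. The TATA box (TATAAA) was in 5 of the 47, or 10.6%, above the 6.67% among bright genes and below the 14.2% of all promoters. The cAMP response element TGACGTCA was in 1 of the 47, 3830406C13Rik, whose sequence is shown above, that is 2.13%, against 3.6% among bright genes and 1.88% of all promoters. The YY1 motif AAGATGGCG was in none of the 97, in 4.08% among bright genes and in 1.49% of all promoters. No motif searched here was common to all promoters of the stretch.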

How the data were processed

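Expression was measured on 1 Affymetrix 3' expression array per group. The authors deposited 1 value per probe set, read here as log2 signals from its range. The submitters' processing notes list MAS5 and affy, with neither versions nor roles, and no source used here gives the scaling target. Values were compared as deposited, with Python 3.11.15, pandas 2.3.3 and statsmodels 0.14.6.

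Single gene names were available for 15273 probe sets, several for 501 and none for 1156, with 64 controls; only the first kind was used. Of these, 15252 matched RefSeq gene IDs. Values of exactly 0 numbered 37 and 43. The array's build is not given, so RefSeq supplied gene order alone; the promoter coordinates are those of the RefSeq sequences. The number of arrays limits the precision, and no test was possible. The members, lists and rules were chosen with earlier results of these data known. Genes were named by rule: the bounding genes, all bright gap genes, extremes, genes nearest the median or near 0, bright genes of each role list, probe-set extremes and complex partners; some dim genes, the promoters shown and the genes of no list were chosen after their values were seen. Alternatives covered scaling, floor, brightness, probe-set choice, thresholds and ends. The rules were also run on simulated arrays, in which all shifted genes of the stretch had the same shift. These lacked the spread between genes seen here, so they do not show how well the classes sort these genes.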

Additional observations from a re-analysis of the deposited data

How the results depend on the processing

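With 1 array per group no replicate could be left out, and no difference could be set against variation between cultures. No paired analysis was possible because each group holds a single array and no test was run. Under 12 or 13 alternatives, the median outside the gap lay between 0.89 and 1.18, that of the gap between -0.32 and -0.25, that of partners elsewhere between 0.03 and 0.11, and the number of genes at least 2-fold higher between 27 and 43, with 57 at a threshold of 1.5-fold. A value was taken as unmoved within the probe-set SD of 0.23, or within 1.5 times for a count. The median outside the gap moved under 1 alternative, to 0.89 with no brightness rule, where 98 genes entered and 29 of them stood near 0. The 2 genes near 0 became 1 with brightness on both arrays, 1 with brightness at the 75th percentile and 0 with a class width of 1 SD. The 51 genes near the median became 29 with brightness at the 75th percentile, which left 43 genes outside the gap and a narrower band, and 32 with a class width of 1 SD. Centring on the array median moved the median of all bright genes by 0.05. When probe sets that can bind several transcripts were left out, Thoc7 had no value. Dim signals limit what can be read of 40 of the 110 genes, and saturation may limit the brightest.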
